A study of Mus musculus with 48 samples.

Results

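The comparison described here is that of PFF with α-syn monomer in mice breathing 11% O2. Its members are the 19 mice of the whole set of 48 that were labelled as hypoxia and kept in the batch-corrected counts, 10 injected with PFF and 9 with monomer. PFF are preformed fibrils of mouse α-synuclein (α-syn), made from the same recombinant protein as the monomer that served as the control injection. All mice were male C57BL/6J, 121 days old at injection, and received the protein on 1 side into the right striatum. The substantia nigra (SN) was dissected about 12 weeks later and its polyadenylated RNA was sequenced. Mice of the other groups breathed 21% O2 after the same injections, and 23 of those were kept. The methods of the study give 12 weeks of 11% O2 starting after injection, whereas the design text deposited with the data gives 6 weeks of 21% O2 and then 6 weeks of 11% O2, so the length of the hypoxia is uncertain. Each mouse gave 1 sample, so p-values rest on the spread between separate mice. The question is how large a difference between PFF and monomer the data leave possible at 11% O2, gene by gene and for sets of cell type and pathway genes.

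α-syn is an abundant presynaptic protein, and its aggregates are the hallmark of Parkinson's disease. Fibrils injected into the striatum are taken up by the endings of nigral dopaminergic neurons, in which they seed the aggregation of the neurons' own α-syn. Monomer does not seed in this way. The SN holds dopaminergic and GABAergic neurons among many oligodendrocytes, astrocytes, microglia and vessels, and a piece dissected from it carries RNA of all of them.

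The mice came in 3 batches that differ in harvest date. Batch 1 held 3 PFF and 4 monomer mice, batch 2 held 3 PFF mice and no monomer mouse, and batch 3 held 4 PFF and 5 monomer mice. Each of the 19 mice had between 12902996 and 17005846 counts on genes, with a median of 15377386. The authors left out 5 further mice at 11% O2, and 1 of these, a PFF mouse, had 3134594 counts. Of the 19, 18 were harvested 90 or 91 days after injection and monomer replicate 11 after 98 days. The dissected piece was SN by its markers, but unevenly so. *Th*, the rate-limiting enzyme of dopamine synthesis, had 252, 704 and 1027 TPM (lowest, median and highest) in PFF mice and 109, 707 and 1079 TPM in monomer mice. The lowest of the 19 was monomer replicate 11. Here TPM is the transcript level per gene length and library size, from the batch-corrected counts.

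None of the 14839 genes tested differed between PFF and monomer at 11% O2 (0% called). A call needed a Benjamini–Hochberg adjusted p under 0.05 in edgeR's quasi-likelihood test and a log2 fold change beyond 0.25. The smallest adjusted p was 0.244, and 581 genes (3.92%) had an unadjusted p under 0.05, 293 higher (1.97%) and 288 lower (1.94%) with PFF. DESeq2 on the same counts called 1 gene (0.00513% of 19506) and limma on log2 TPM called none. There was no gene whose TPM separated the groups, so that all PFF mice lay on the same side of all monomer mice (0% of 14839).

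The data bounded the differences narrowly for most genes. The median standard error of a log2 fold change was 0.0648, and the median 95% interval reached 0.131 to either side of its estimate. The interval lay within ±0.25 for 10078 genes (67.9%), within ±0.5 for 13277 (89.5%) and within ±1 for 14628 (98.6%). A doubling or halving thus lay outside the interval for those 14628 genes. At the other end, 8 genes had intervals that lay wholly beyond 0.25. The bounds depended on expression level: the interval was within ±0.5 for 24.7% of the 539 genes with a mean under 1 TPM, 75.4% of the 3879 genes from 1 to 10 TPM, 97.9% of the 8484 genes from 10 to 100 TPM and 98.6% of the 1937 genes over 100 TPM. For weakly expressed genes, therefore, a moderate difference was not detectable at this depth and number of mice.

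**Figure D1:**
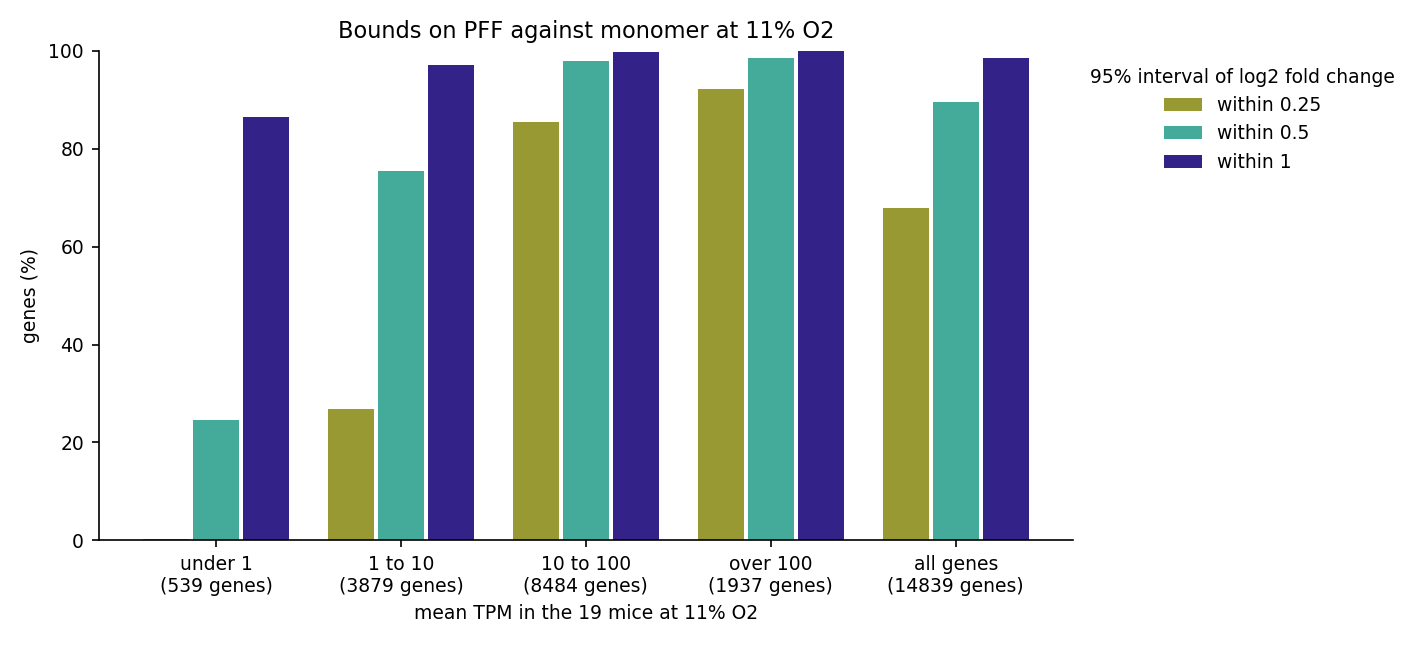
Share of genes in percent (vertical axis) whose 95% interval of the log2 fold change, PFF against monomer at 11% O2, lies within ±0.25, ±0.5 or ±1 (colours), by mean TPM of the 19 mice (horizontal axis). The bars for ±0.5 run from 24.7% under 1 TPM to 98.6% over 100 TPM, and the last bars give all 14839 genes.

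The genes described next were those with the smallest p that had the same sign in batches 1 and 3 taken alone and at least 1 TPM on average. Their fold changes and p chose them and are given as a description. The leading gene was *Vapa* (chr17:65578327-65613555, GRCm38), which encodes a protein of the endoplasmic reticulum membrane that tethers it to other organelles. *Vapa* had 114, 121 and 129 TPM in PFF mice and 86.4, 101 and 116 TPM in monomer mice (lowest, median and highest). All but 1 of the PFF mice, 9 of 10, lay above the highest monomer mouse, and 8 of 9 monomer mice lay below the lowest PFF mouse. The log2 fold change of *Vapa* was 0.26 ± 0.0538 (SE; 95% interval 0.15 to 0.37, edgeR adjusted p = 0.244), with 0.30 in batch 1 and 0.15 in batch 3.

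*Bri3* (chr5:144244437-144446757), which encodes a small lysosomal membrane protein, had 43.9, 51.2 and 63.1 TPM in PFF mice and 28.3, 38.3 and 53.9 TPM in monomer mice. The monomer mouse at 53.9 TPM was the late-harvested replicate 11. The next highest monomer mouse had 42.2 TPM, below every PFF mouse. The log2 fold change of *Bri3* was 0.46 ± 0.103 (edgeR adjusted p = 0.253). Without replicate 11 it was 0.54, with an adjusted p of 0.0347 that makes *Bri3* the 1 gene called in that fit. Over all 33 alternatives the adjusted p of *Bri3* ran from 0.0347 to 1.00. DESeq2 called *Vapa* and no other gene, at an adjusted p of 0.0493, and the adjusted p of *Vapa* ran up to 1.00 over its alternatives. No other gene was called in those alternatives.

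*Tmem160* (chr7:16452779-16455494), which encodes a mitochondrial membrane protein, had 84.0, 113 and 127 TPM in PFF mice and 49.5, 69.2 and 108 TPM in monomer mice. Here 7 of 10 PFF mice lay above all monomer mice. Its log2 fold change was 0.57 ± 0.13, the largest among these leading higher genes, and nearly the same in batch 1 (0.50) and batch 3 (0.52). *Hnrnpab*, which encodes an RNA-binding protein of the nucleus, had 136, 143 and 160 TPM in PFF mice and 101, 120 and 145 TPM in monomer mice, and its log2 fold change was 0.29 ± 0.0673. In that gene 7 of 9 monomer mice lay below the lowest PFF mouse. The other leading higher genes were *Rab5if* (log2 fold change 0.27), *Inafm1* (0.25), *Cmas* (0.22), the enzyme that activates sialic acid, and *Ube2j2* (0.21), a ubiquitin-conjugating enzyme of the endoplasmic reticulum, with edgeR adjusted p from 0.253 to 0.531. All of the 8 kept their sign in every alternative. The fits of batch 1 and batch 3 alone are among the alternatives and chose these genes, so this follows in part from the choice.

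On the lower side, *Xlr4a* (chrX:73074345-73082478) stood apart in size. Its TPM were 0, 1.03 and 3.13 in PFF mice and 0.158, 6.80 and 14.7 in monomer mice, so 5 monomer mice lay above all PFF mice while the lowest monomer mouse had almost none. The log2 fold change was −2.33 ± 0.536 (edgeR adjusted p = 0.253), with −0.75 in batch 1 and −2.93 in batch 3. *Xlr4a* belongs to an X-linked family of near-identical copies, among which reads with several alignments may be split, so its level is uncertain. Its relative *Xlr3b* differed between batches, with a log2 fold change of 0.53 in batch 1 and −1.88 in batch 3.

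*Eps8l1*, a relative of the actin-regulating adaptor *Eps8*, had 5.56, 11.3 and 14.2 TPM in PFF mice and 12.4, 15.6 and 24.1 TPM in monomer mice. In this gene 9 of 10 PFF mice lay below the lowest monomer mouse. Its log2 fold change was −0.59 ± 0.155 (edgeR adjusted p = 0.536), with −0.54 in each of batches 1 and 3. *Tdrd6*, a tudor domain gene known from germ cells, had 2.60, 3.18 and 4.04 TPM in PFF mice and 3.52, 4.18 and 4.73 TPM in monomer mice (log2 fold change −0.35 ± 0.097). *Fbln5*, an elastic fibre component, and *Lmod1*, an actin nucleator of smooth muscle, had log2 fold changes of −0.46 and −0.49 (edgeR adjusted p = 0.92 for each). The rest were *Cdk5rap1* (−0.25), which modifies mitochondrial tRNA, *Ndor1* (−0.23), an electron carrier of cytosolic iron–sulphur assembly, and *Pdcd2l* (−0.18). In the plot of single mice some monomer mice lie among the PFF mice for *Xlr4a* and *Fbln5*.

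**Figure D2:**
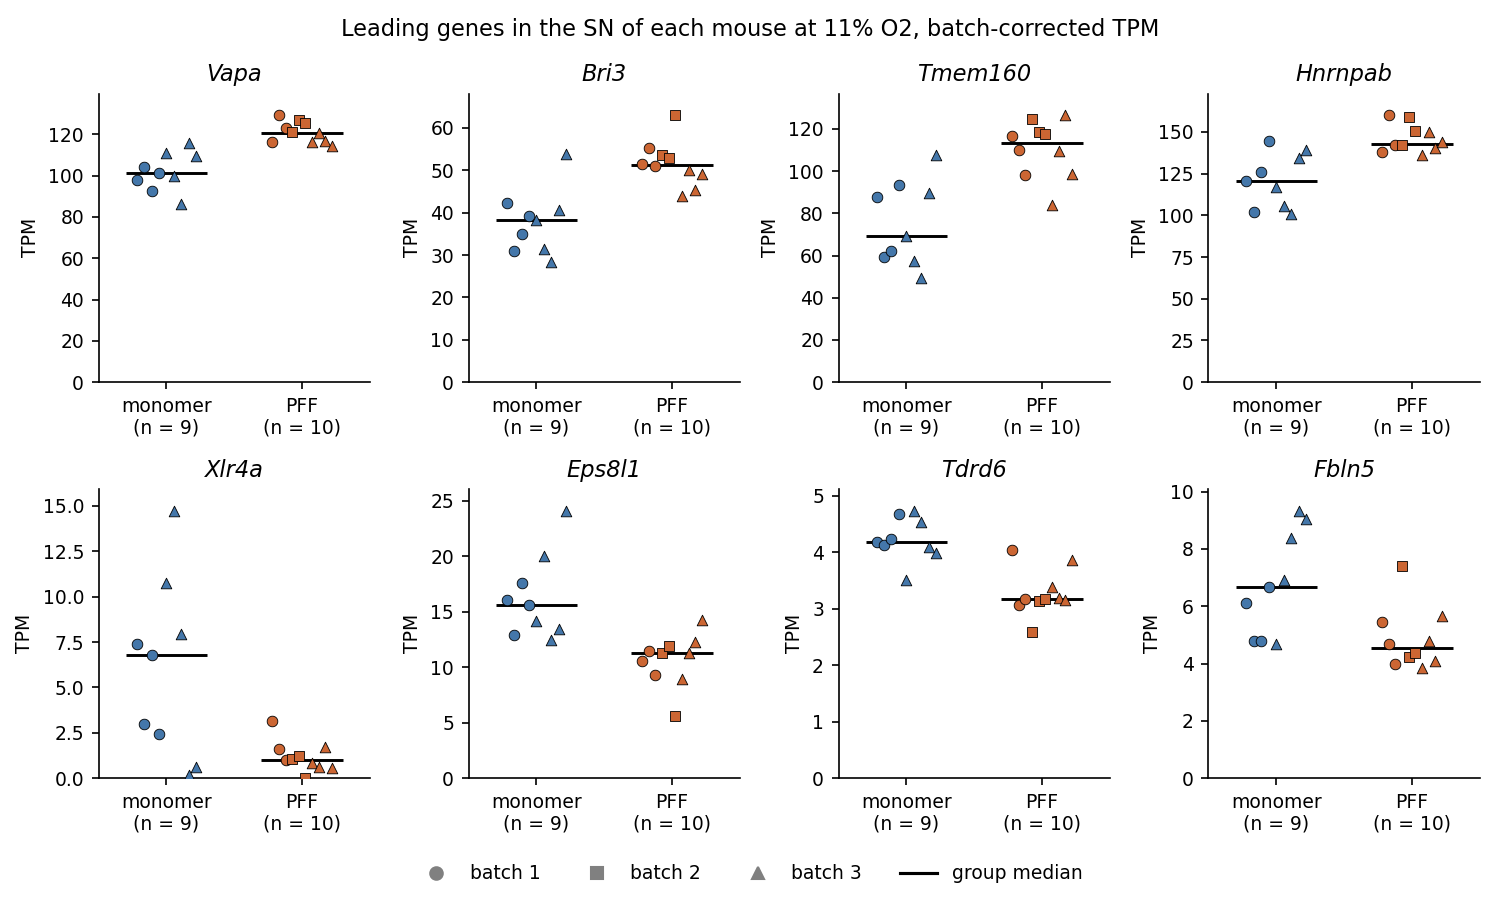
Batch-corrected TPM (vertical axes, from 0) of 8 leading genes in each mouse at 11% O2, monomer (n = 9, blue) and PFF (n = 10, orange), with symbols for the batch and a line at the group median. *Vapa* medians are 101 and 121 TPM and *Xlr4a* medians 6.80 and 1.03 TPM, and no gene separates the groups fully.

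The genes with the largest estimates at an unadjusted p under 0.05 are given next. *Prg4*, which encodes lubricin, had a log2 fold change of 1.35 ± 0.452, and 1 PFF mouse, replicate 8 of batch 2, stood at 23.1 TPM with no other PFF mouse above 2.72 TPM. The PFF median of *Prg4* was 2.05 TPM and the monomer mice lay between 0.88 and 2.55 TPM. *Hist1h2br*, a histone gene with many close copies, had 0.679, 1.03 and 1.29 TPM with PFF and 0.326, 0.459 and 1.09 TPM with monomer (log2 fold change 0.94, edgeR adjusted p = 0.477). A second gene annotated as *Ptp4a1* (0.84), *Aox3* (−1.18), an aldehyde oxidase, and *Xlr3b* (−1.13) completed this set with *Xlr4a*. For *Prg4*, that second *Ptp4a1*, *Aox3* and *Xlr3b* the edgeR adjusted p was 1.00.

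Batches 1 and 3 each held both groups and had no mouse in common, so the comparison can be read separately in each on the counts before correction. Of 14443 genes tested in both, 5758 (39.9%) had the same sign. Across genes, which are not independent replicates and share the libraries of each batch, Pearson's r was −0.107 and Spearman's rho −0.212. Of the 526 genes at an unadjusted p under 0.05 in batch 1, 28.5% had the same sign in batch 3, and of the 450 in batch 3, 34.9% had the same sign in batch 1. Only 26 genes were on both lists, and 7 of those had the same sign. In batch 1 alone 3.66% and in batch 3 alone 3.12% of all genes tested there had such a p, and neither batch gave a call (smallest edgeR adjusted p 0.942 in batch 1 and 0.995 in batch 3). The difference between the batches was tested as the interaction of batch and injection, and none of 14552 genes was called (0%), with 811 (5.57%) at an unadjusted p under 0.05. The standard errors behind these readings were larger, with a median of 0.0981 in batch 1 and 0.0924 in batch 3. When monomer replicate 11 was left out, the share of genes with the same sign was 35.7% and r was −0.228. With all mice of batches 1 and 3, those left out by the authors included, the share was 49.0%, with an r of −0.240 and a rho of −0.037.

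**Figure D3:**
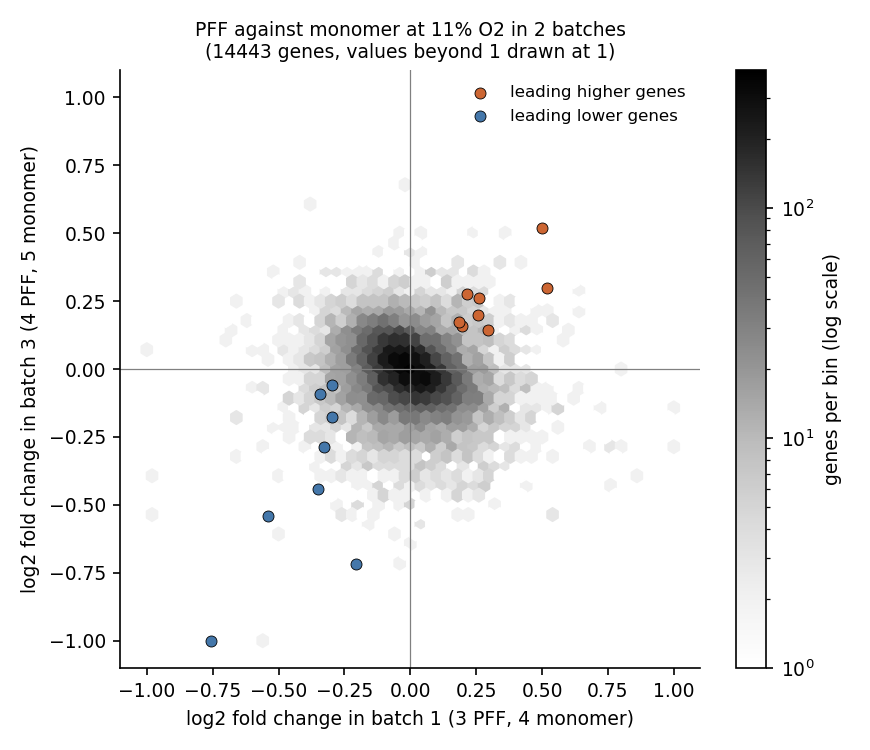
Log2 fold change of PFF against monomer at 11% O2 in batch 1 (horizontal axis, 3 PFF and 4 monomer mice) and in batch 3 (vertical axis, 4 PFF and 5 monomer mice), counts before correction, as the number of genes per hexagon on a log grey scale, with values beyond 1 drawn at 1. The cloud of 14443 genes tilts slightly downwards (r −0.107), and the coloured leading genes lie in the upper right and lower left because they were chosen for the same sign in both batches.

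Gene lists of cell types and pathways are described by how many tested members had higher or lower estimates, beside the same count over all genes, of which 49.6% lay above and 50.4% below 0, around a median of −0.0006. In bulk RNA, fewer cells of a type and less RNA per cell cannot be told apart. The myelin-forming lineage leaned lower with PFF. Of 20 oligodendrocyte genes 19 were lower, with a median of −0.11, and 2 had an unadjusted p under 0.05, against 1.94% of all genes. These were *Mal* (−0.16 ± 0.0732), a myelin membrane protein, and *Mog* (−0.13 ± 0.0639), a protein of the outer myelin surface. *Mog* had 444, 465 and 540.5 TPM in PFF mice and 423, 524 and 618 TPM in monomer mice, so the PFF mice lay within the monomer range. Of 14 genes of oligodendrocyte precursors 12 were lower (median −0.11), 4 of them at an unadjusted p under 0.05, among them *Pdgfra* (−0.13 ± 0.052), the growth factor receptor of these cells, and *Tnr* (−0.13 ± 0.05), an extracellular matrix protein. Within batch 1 all 20 oligodendrocyte genes were lower (median −0.11) and within batch 3 it was 15 (median −0.07). No member of either list passed the adjusted threshold, and every interval in both lists lay within ±0.5. With all 48 mice all 20 oligodendrocyte genes were lower (median −0.19), 17 of them at an unadjusted p under 0.05. In that fit 7.32% of all genes had such a p in either direction. It includes mice at 11% O2 that the authors left out. Before correction the summed oligodendrocyte level was 6698 and 12273 TPM in PFF replicates 2 and 5 of these. In monomer replicates 8, 9 and 12 it was 19221, 17404 and 13615 TPM. Without the PFF mice of batch 2 no gene of either list had such a p (medians −0.09 and −0.06).

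Genes of the vessel wall leaned the same way. Of 22 endothelial genes 19 were lower (median −0.13), of 14 pericyte genes 13 (median −0.15) and of 11 tested genes of arterial smooth muscle 10 (median −0.20). At an unadjusted p under 0.05 were 2 endothelial (9.09%), 4 pericyte (28.6%) and 6 smooth muscle genes (54.5%), all lower. Of all genes 1.94% had such a p on the lower side. *Pdgfrb*, the receptor by which pericytes are recruited to vessels, had 15.3, 16.8 and 19.04 TPM in PFF mice and 16.4, 19.6 and 26.7 TPM in monomer mice. All 10 PFF mice lay below the monomer median, and the log2 fold change of *Pdgfrb* was −0.23 ± 0.0736 (edgeR adjusted p = 1.00). *Cdh5*, the adhesion protein of endothelial junctions, had 8.31, 9.996 and 11.8 TPM with PFF and 7.60, 11.4 and 28.1 TPM with monomer (log2 fold change −0.42 ± 0.152). *Myh11*, the myosin of smooth muscle, had 0.594, 2.52 and 4.25 TPM with PFF and 0.467, 4.78 and 12.2 TPM with monomer (−0.87 ± 0.346).

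The vascular values were larger in batch 3, and 1 mouse moved them. The endothelial median was 0.04 in batch 1, with 15 of 22 genes higher, and −0.29 in batch 3, with all 22 lower. The pericyte median was −0.10 in batch 1 and −0.20 in batch 3, and that of smooth muscle −0.16 and −0.44. Monomer replicate 11, the late-harvested mouse, had the highest endothelial and pericyte levels of the 19 mice and the lowest level of dopaminergic neuron genes. Without it 16 of 22 endothelial genes were lower (median −0.09, none at an unadjusted p under 0.05), 12 of 14 pericyte genes (median −0.14, 1 such gene) and 9 of 11 smooth muscle genes (median −0.18, 3 such genes). In that fit 3.49% of all genes had such a p. With all 48 mice 1 smooth muscle gene had such a p (9.09%, median −0.17), against 7.32% of all genes. The part of harvest date and of the cell make-up of that sample in these values was not tested.

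Genes of the meninges and blood varied between mice. Of 15 meningeal fibroblast genes 14 were lower (median −0.27), among them the proteoglycans *Lum* (−0.68 ± 0.389) and *Bgn* (−0.46 ± 0.244), but none had an unadjusted p under 0.05 and no interval lay within ±0.5. The summed level of the list ran from 1123 to 1577 TPM in PFF mice and from 928 to 2647 TPM in monomer mice. Monomer replicate 11 had the highest meningeal level too, and without it 9 of 15 genes were lower (median −0.09). All 8 tested red cell genes were lower (median −0.21), with 0.05 in batch 1 and −0.75 in batch 3. *Alas2*, the first enzyme of haem synthesis in red cells, reached 27.001 TPM in a PFF mouse and 38.6 TPM in a monomer mouse, against group medians of 7.74 and 10.2 TPM. With all 48 mice and the batch as a covariate the direction turned in both lists, with medians of 0.13 for the meningeal and 0.75 for the red cell genes. With that covariate and the 42 mice kept they were −0.36 and −0.16. Before correction PFF replicates 2 and 5, left out by the authors, had 30127.5 and 3479 TPM of red cell genes and 4346 and 10644 TPM of meningeal genes. Monomer mice left out had 1714 to 5809 and 2107 to 3143 TPM. The part of these mice in the turn was not tested. Of 11 choroid plexus genes 9 were lower (median −0.15), with a median of 0.17 in batch 1 and −0.14 in batch 3.

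**Figure D4:**
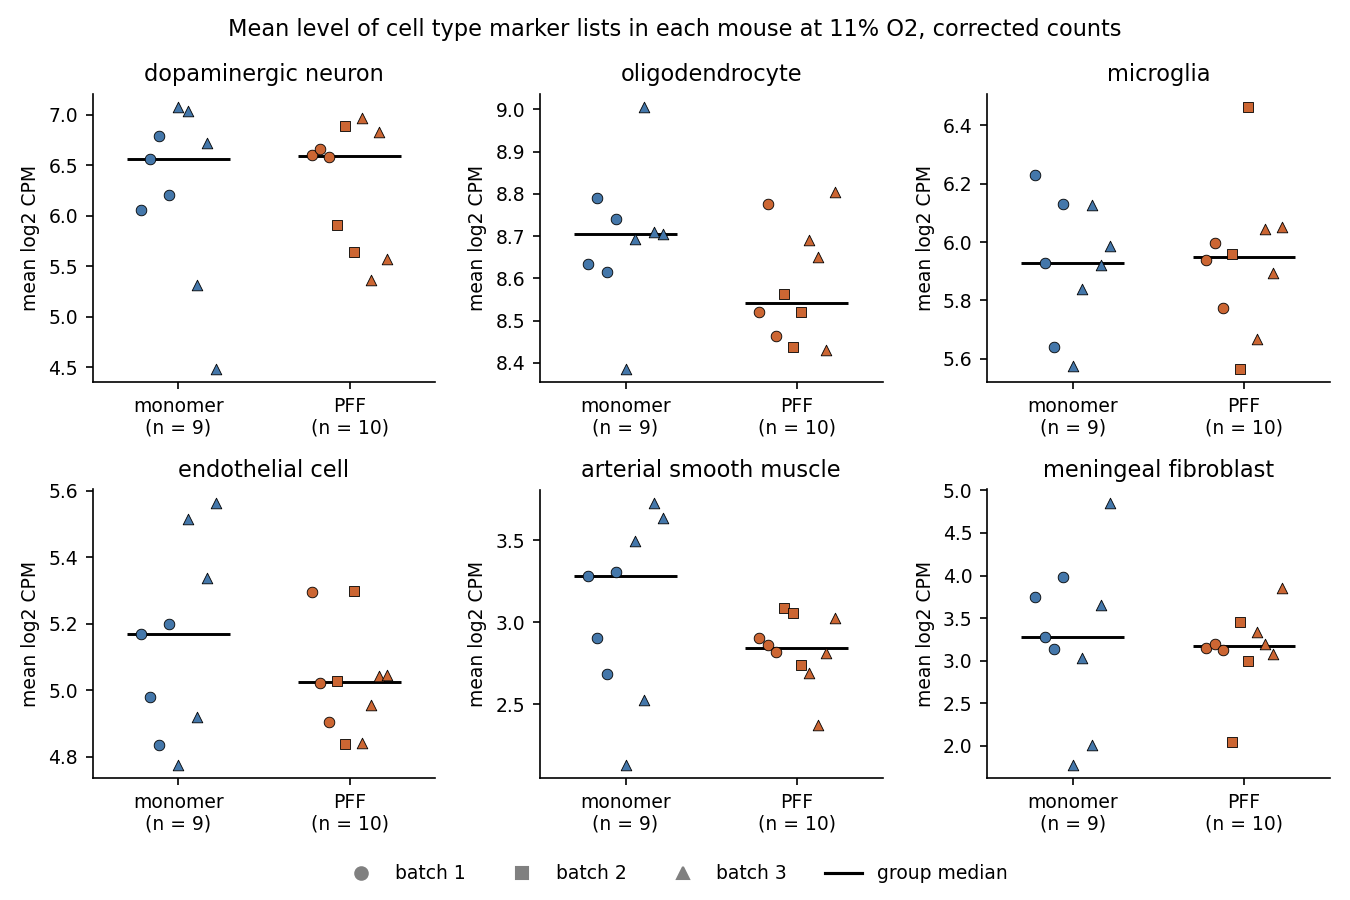
Mean log2 CPM (counts scaled to library size) of 6 cell type lists (vertical axes) in each mouse at 11% O2, monomer (n = 9) and PFF (n = 10), with symbols for the batch and a line at the group median. The groups overlap in every list, and the highest meningeal value (4.86) and the lowest dopaminergic value (4.48) belong to monomer replicate 11.

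Dopaminergic neuron genes were loosely bounded. Of 18 genes 6 were higher and 12 lower (median −0.03), and only 4 intervals lay within ±0.5. The mean log2 CPM of the list ran from 5.37 to 6.97 in PFF mice and from 4.48 to 7.08 in monomer mice, with medians of 6.59 and 6.56. In batch 1 all 18 were higher with PFF (median 0.26) and in batch 3 15 of 18 were lower (median −0.06). The direction of the median held in 16 of 33 alternatives. With all 48 mice 16 of 18 were higher (median 0.21), with the batch as a covariate 13 (median 0.03) and without the PFF mice of batch 2 12 (median 0.02). Without monomer replicate 11, the mouse with the lowest level of this list, 15 of 18 were lower (median −0.14). *Th* had a log2 fold change of −0.04 ± 0.345 and a 95% interval from −0.74 to 0.65. *Sox6*, a transcription factor of ventral tier dopaminergic neurons that is also expressed in oligodendrocyte precursors, was the only member at an unadjusted p under 0.05 (−0.14 ± 0.06). The 18 genes of neuronal synapses were bounded far better, with 14 higher (median 0.03) and all intervals within ±0.5.

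Microglial genes gave no direction that the batches shared. Of 18 homeostatic genes 11 were higher (median 0.02), none had an unadjusted p under 0.05, and all intervals lay within ±0.5. In batch 1 17 of 18 were lower (median −0.17) and in batch 3 11 were higher (median 0.05). *Aif1*, which encodes the microglial marker IBA1, had 21.8, 25.7 and 44.9 TPM in PFF mice and 17.5, 25.3 and 32.9 TPM in monomer mice (0.09 ± 0.141). In the disease-associated set 11 of 15 genes were higher (median 0.05, with −0.07 in batch 1 and 0.07 in batch 3). Its largest estimates, *Lgals3* (0.69 ± 0.406), which encodes galectin-3, and *Cst7* (0.63 ± 0.361), a protease inhibitor, were spread over mice. *Lgals3* reached 12.5 TPM in a PFF mouse, and 3 PFF mice lay above and 3 below all monomer mice. Of 16 astrocyte genes 13 were lower, by a median of −0.03.

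The 13 protein-coding genes of the mitochondrial genome leaned higher with PFF, 12 of 13 with a median of 0.11, and 6 had an unadjusted p under 0.05 (46.2%, against 1.97% of all genes on the higher side). *mt-Co3*, a subunit of cytochrome c oxidase, had 10838, 12225 and 14704 TPM in PFF mice and 9978, 11539 and 12845 TPM in monomer mice (0.13 ± 0.0493, edgeR adjusted p = 1.00). *mt-Atp6*, a subunit of ATP synthase, had a log2 fold change of 0.14 ± 0.0554. The estimate was 0.18 in batch 1 and −0.03 in batch 3, where 12 of 13 were lower. Mitochondrial transcripts are cut from shared precursors, so these 13 are not independent values. Without the PFF mice of batch 2, which have no monomer counterpart in their batch, the median was 0.06 and no gene had an unadjusted p under 0.05.

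Large protein complexes encoded in the nucleus leaned slightly higher, by medians smaller than the median standard error of the members of each list. Estimates were higher for 28 of 36 complex I genes (median 0.02), 29 of 39 genes of complexes II to V (median 0.02), 24 of 31 proteasome genes (median 0.03) and 37 of 42 cytosolic ribosomal protein genes (median 0.03). In batch 1 the complex I median was −0.05 and in batch 3 0.06. The other 3 lists also differed in sign between batches 1 and 3. The medians were −0.04 and 0.05 for complexes II to V, −0.004 and 0.04 for the proteasome and 0.02 and −0.003 for the ribosome. All intervals of the first 3 of these lists lay within ±0.5. At an unadjusted p under 0.05 were 2 proteasome genes (6.45%) and 1 gene of complexes II to V (2.56%), all higher. Of all genes 1.97% had such a p on the higher side. Autophagy genes were split, 9 higher and 11 lower of 20 (median −0.006, with −0.03 in batch 1 and 0.03 in batch 3). At an unadjusted p under 0.05 were 2 of them (10%, against 1.97% of all genes on the higher side), both higher. These were *Atg3* (0.19 ± 0.0524, with 0.14 and 0.21 in batches 1 and 3), the enzyme that attaches LC3 to lipid, and *Map1lc3a* (0.17 ± 0.0549, with 0.16 and 0.14), which encodes an LC3. *Map1lc3a* had 419, 441 and 470 TPM in PFF mice and 343, 404 and 431 TPM in monomer mice, and 8 of 10 PFF mice lay above every monomer mouse.

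**Figure D5:**
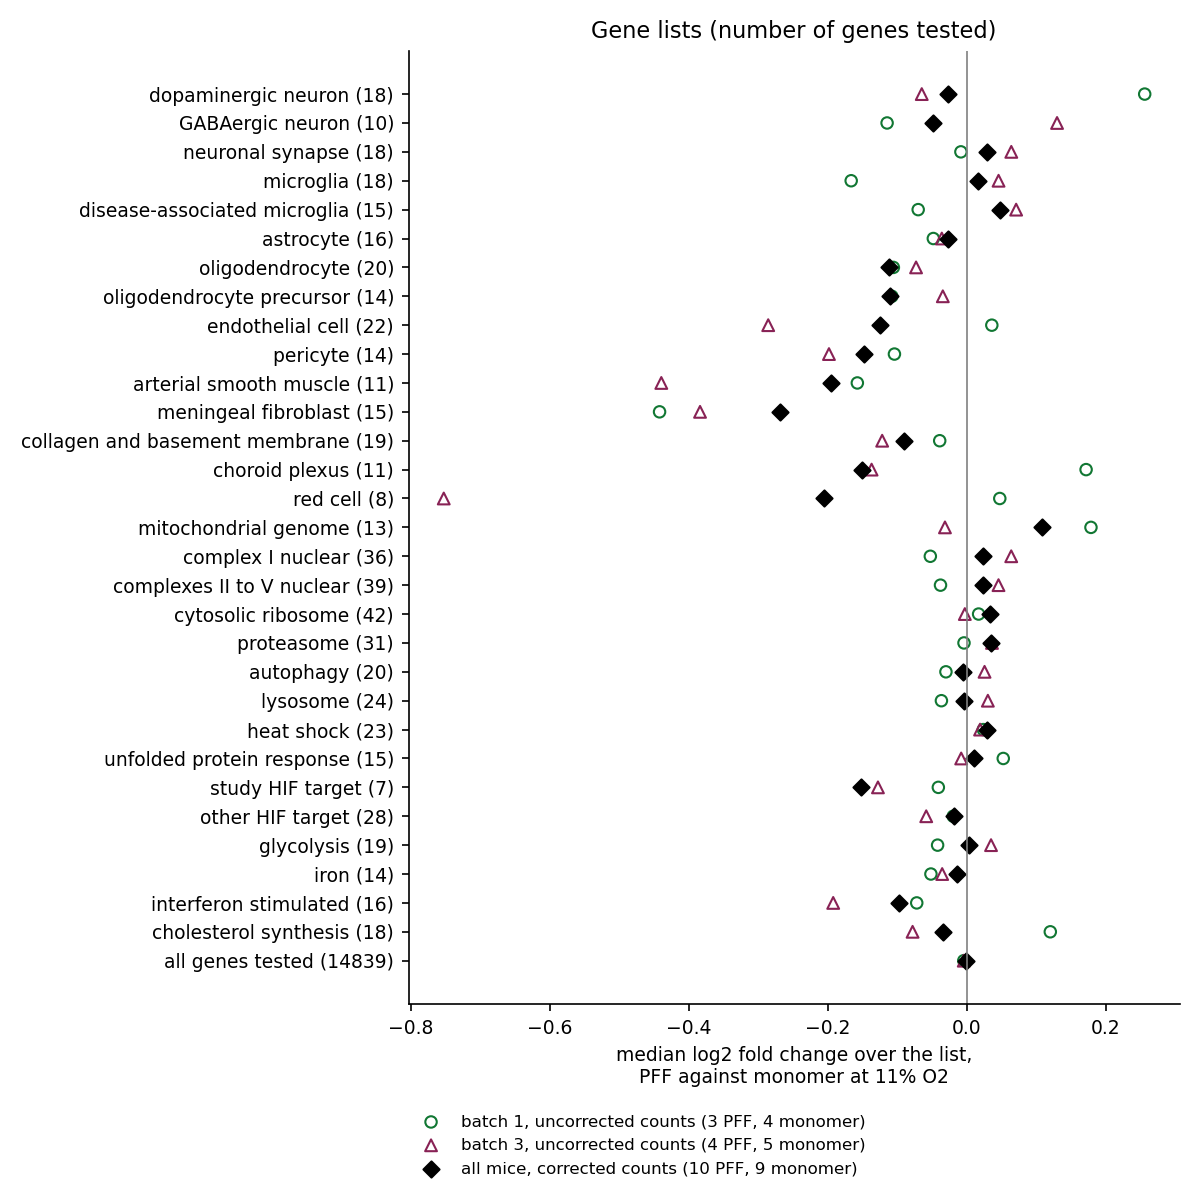
Median log2 fold change of PFF against monomer at 11% O2 (horizontal axis) for 30 gene lists and all genes tested (vertical axis, number tested in brackets), in all mice (diamonds), batch 1 (circles) and batch 3 (triangles). Diamonds lie between −0.27 and 0.11. The batches lie on opposite sides of 0 for the endothelial, red cell, dopaminergic, microglial and mitochondrial genome lists. They also do so for others, among them the GABAergic, disease-associated microglia, choroid plexus, complex I, proteasome, cytosolic ribosome and cholesterol synthesis lists.

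Genes that answer to oxygen or iron showed no call. The interval lay within ±0.25 for 2 of the 7 HIF targets named by the study, and their median interval reached 0.24 to either side. *Tfrc*, the transferrin receptor through which cells take up iron, had 68.3, 79.8 and 91.6 TPM in PFF mice and 69.8, 74.0 and 93.2 TPM in monomer mice, with a log2 fold change of 0.03 ± 0.0732. *Slc40a1*, the iron exporter ferroportin, had −0.07 ± 0.104. *Vegfa*, the angiogenic factor induced by HIF, had 200, 216 and 262 TPM in PFF mice and 203.9, 238 and 274 TPM in monomer mice (−0.06 ± 0.0514). Its receptor *Kdr* had −0.18 ± 0.0923, the vasodilator peptide gene *Adm* −0.27 ± 0.159, the chemokine gene *Cxcl12* −0.20 ± 0.119 and the pericyte gene *Ndufa4l2* −0.15 ± 0.132. *Ldha*, the last enzyme of anaerobic glycolysis, had 0.01 ± 0.0642 and the lactate exporter *Slc16a3* 0.04 ± 0.168. Of the 7 HIF targets named by the study 5 were lower (median −0.15), and of 28 others 17 were lower (median −0.02). Among the 7, *Kdr* is also a member of the endothelial list and *Ndufa4l2* of the pericyte list. The 19 glycolysis genes had a median of 0.003, with 12 higher, and the 14 iron genes a median of −0.01.

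Stress and immune lists held no call. Of 23 heat shock genes 16 were higher (median 0.03), and *Hspe1*, the mitochondrial chaperonin partner, was the only one at an unadjusted p under 0.05 (0.13 ± 0.0509). The unfolded protein response had a median of 0.01 and the integrated stress response −0.03. Of 16 interferon-stimulated genes 13 were lower (median −0.10), none at an unadjusted p under 0.05 and 6 with an interval within ±0.5, and 12 and 15 were lower in batches 1 and 3. Of 16 genes of antigen presentation 12 were higher (median 0.03, with −0.16 in batch 1 and 0.04 in batch 3). Cholesterol synthesis genes were lower in 17 of 18 (median −0.03), with 0.12 in batch 1 and −0.08 in batch 3. For T cells, B cells and neutrophils 1 of 14 markers passed the filter on low counts, and the summed level of the 14 was at most 17.5 TPM.

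The response at 21% O2 rests on other mice and gives a scale for these bounds. There, 549 of the same 14839 genes (3.70%) were called. At 11% O2, none of them was called, and 33.0% had the same sign as at 21% O2, against 46.0% of all genes. Their median at 11% O2, signed by the direction at 21% O2, was −0.04, whereas their median absolute log2 fold change at 21% O2 was 0.38. The interval at 11% O2 left out the 21% value for 530 of the 549 genes (96.5%) and lay within ±0.5 for 470. That share does not show how many genes differ between the oxygen levels. The 549 were chosen by the size and p of their 21% values, and the error of those values is not counted. The interaction of injection and O2, described next, carries both errors and was called for 318 of all genes, only some of them among the 549. At 11% O2, 4 of the 549 had an unadjusted p under 0.05 in the same direction and 38 in the opposite direction. The sets share no mouse, but all 4 groups went through the same batch correction. At 21% O2 each batch held 4 PFF mice, whereas the monomer mice were 4 in batch 1 and 7 in batch 2, with none in batch 3. At 11% O2 batch 2 held PFF mice and no monomer mouse. Batch effects left after correction and opposite responses at the 2 oxygen levels cannot be told apart here.

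The difference between the responses was itself tested, and 318 genes (2.14%) were called for the interaction of injection and O2. Their median absolute log2 fold change was 0.13 at 11% O2 and 0.32 at 21% O2, 300 of them had opposite signs, and 105 had an unadjusted p under 0.05 at 11% O2. The interaction contains the 11% contrast, so these counts follow in part from the choice and are given as a description. Over all genes 46.0% had the same sign and 3.92% had such a p. The 3 genes of smallest p in each direction were *Ccdc117*, *Dnajb1* and *Vapa*, and *Lrrc29*, *Egf* and *Cirbp*. *Dnajb1*, a heat shock cochaperone, had 74.4, 82.2 and 92.6 TPM in PFF mice and 70.5, 81.3 and 92.3 TPM in monomer mice at 11% O2 (0.06 ± 0.077), against −0.71 at 21% O2. *Ccdc117* had 0.13 against −0.70, *Cirbp*, a cold-induced RNA-binding protein, −0.07 against 0.62, and *Lrrc29* −0.13 against 0.81. *Egf*, a growth factor, had −0.42 against 0.79. *Tfrc* had 0.03 against 0.40. *Vapa* had 0.26 against −0.24. Of these, *Egf* and *Vapa* had an unadjusted p under 0.05 at 11% O2.

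For the leading higher genes the values at 21% O2 ran the other way in 8 of 8. Over all genes 46.0% had the same sign at both oxygen levels. Here too, batch effects left after correction and opposite responses cannot be told apart. *Vapa* had a log2 fold change of −0.24 at 21% O2 (edgeR adjusted p = 0.00155), *Hnrnpab* −0.28 (0.0032), *Rab5if* −0.26 (0.00358), *Ube2j2* −0.16 (0.0232) and *Inafm1* −0.18 (0.0478). *Bri3* had −0.27, *Tmem160* −0.30 and *Cmas* −0.10, with edgeR adjusted p of 0.065, 0.111 and 0.245. With the threshold on size, *Hnrnpab* and *Rab5if* were called at 21% O2. Among the leading lower genes *Tdrd6* had 0.30 at 21% O2 (edgeR adjusted p = 0.0319), *Xlr4a* 1.23 (0.139), and the other 6 lay between −0.03 and 0.11. The interaction was called for all 8 higher genes, but it contains the contrast by which they were chosen and is given as a description.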

How the data were processed

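Bulk RNA-seq of the SN was analysed. Per the labels and the study's methods, the authors removed ribosomal DNA reads, aligned the rest with STAR 2.7.5a to mm10, removed duplicates with Picard 2.21.9 and deposited counts per gene from featureCounts 2.0.1. They left out 6 of 48 mice after principal component analysis and corrected the counts of protein-coding genes for batch with ComBat-seq, keeping O2 and injection as covariates. TPM were deposited by the authors from the uncorrected and the corrected counts. Reads were counted without strand, so overlapping and antisense genes cannot be told apart.

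The corrected counts of 42 mice were fitted in R 4.3.3 with edgeR 4.0.16 (TMM, filterByExpr, quasi-likelihood test), with the 4 groups in 1 model and Benjamini–Hochberg adjustment over 14839 genes. Each standard error was taken from the log2 fold change and its F statistic (|log2 fold change|/√F). Since the correction used the injection as a covariate, differences between groups may be sharper in corrected counts than before correction, so batches 1 and 3 were fitted alone on uncorrected counts. Alternatives were DESeq2 1.42.0, limma 3.58.1 on log2(TPM + 1) or log2(TPM + 0.1), other filters, scalings and batch terms, all 48 mice, and fits without single mice. The steps were tested on simulated data. Named genes were the 8 per direction with the smallest p, the same sign in batches 1 and 3 and a mean of at least 1 TPM; the genes the study names, with *Aif1* and *Th*; the 2 of smallest p per gene list; the 3 largest changes per direction at an unadjusted p under 0.05; the 3 of smallest p per direction for the interaction; and genes called by an alternative that calls few. The comparison, its members and the 47 gene lists were chosen with earlier results of these data known. Coordinates came from GENCODE vM21 (GRCm38), matched by versioned gene ID. Sequences were not used here, and 1 gene that the rule also named is not reported here.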

Additional observations from a re-analysis of the deposited data

Results flagged for a closer look

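Over 124 genes that the selection rule named, 248 groups of mice were examined, and in 24 of them 1 mouse stood apart from its group by Dixon's test, which marks about 5% of groups by chance. Each value is given with that of the next mouse. Of the PFF mice, replicate 8 stood high for *Prg4* (23.1 against 2.72 TPM), *Aif1* (44.9 against 30.3 TPM), *Alas2* (27.001 against 13.5 TPM), *Ifit2* (28.8 against 23.5 TPM) and *Nlrc5* (2.87 against 2.15 TPM). Replicate 6 stood high for *Fbln5* (7.41 against 5.67 TPM), *Adm* (14.5 against 9.97 TPM) and *Plin4* (22.2 against 9.74 TPM), and low for *Cdkn1c* (5.95 against 8.57 TPM). Single high values were those of *Slc16a3* in replicate 9 (14.8 against 11.7 TPM), *Sox6* in replicate 3 (12.6 against 10.01 TPM), *Chat* in replicate 11 (1.02 against 0.631 TPM) and *Dbp* in replicate 7 (91.4 against 69.4 TPM).

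Of the monomer mice, the late-harvested replicate 11 stood high for *Cdh5* (28.1 against 15.3 TPM), *Nid1* (16.9 against 11.9 TPM) and *Xlr3b* (57.1 against 29.6 TPM). Replicate 3 stood high for *Chat* (0.796 against 0.511 TPM) and *Dnajb11* (74.6 against 62.9 TPM), and low for *Gad2* (238 against 283 TPM), *Cst7* (0.271 against 2.19 TPM) and *Gclm* (47.5 against 54.8 TPM). Replicate 7 stood high for *Lgals3* (4.51 against 3.11 TPM) and *Agt* (1226 against 1010.03 TPM), and replicate 10 for the second gene annotated as *Ptp4a1* (Ptp4a1_ENSMUSG00000117310.2, 3.52 against 1.49 TPM).

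For 24 of the named genes the PFF response at 11% O2 differed from that at 21% O2 by the edgeR interaction test. Of all genes 2.14% were called by that test. Batch effects left after correction and different responses at the oxygen levels cannot be told apart for these genes. The difference in log2 fold change, 11% minus 21% O2, was 0.50 for *Vapa*, 0.73 for *Bri3*, 0.87 for *Tmem160*, 0.53 for *Rab5if*, 0.57 for *Hnrnpab*, 0.37 for *Ube2j2*, 0.31 for *Cmas* and 0.44 for *Inafm1*. It was −3.56 for *Xlr4a*, −0.65 for *Tdrd6* and −0.32 for *Ndor1*. Among members of the gene lists it was −0.33 for *Mog*, −0.39 for *Pdgfrb*, −0.39 for *Xaf1*, an interferon-stimulated gene, 0.33 for *Atg3* and 0.28 for *Map1lc3a*. It was 1.54 for *Hist1h2br* and 1.95 for Ptp4a1_ENSMUSG00000117310.2. All of these were chosen by their values at 11% O2, which the interaction contains. For *Tfrc*, a gene named by the study, it was −0.37 (edgeR adjusted p = 0.0345). The study named *Tfrc* for its rise with PFF at 21% O2 in these same data, a contrast that the interaction also contains. The genes chosen for this difference had 0.83 (*Ccdc117*), 0.77 (*Dnajb1*), −0.94 (*Lrrc29*), −1.20 (*Egf*) and −0.69 (*Cirbp*), and *Vapa* was chosen by both rules.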

How the results depend on the processing

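No gene was called, except 1 with DESeq2 (*Vapa*) and 1 without the late-harvested mouse, monomer replicate 11 (*Bri3*). Leaving out each mouse in turn gave 0 to 1 calls and 421 to 964 genes at an unadjusted p under 0.05, the most without monomer replicate 5. That number was 581 in the fit reported, 1080 with all 48 mice, 304 without the PFF mice of batch 2 and 324 with the mice of batches 1 and 3 only, a setting chosen after seeing the data. With the replicate number as a block it was 1014, with no call (smallest adjusted p 0.705). The numbers did not pair the mice: over 7 shared numbers the correlation of deviations ran from −0.276 to 0.142, with 1 above 0.1 and 1 mouse pair closest to its own number. With limma, 35.1%, 35.7% and 33.8% of such genes were higher, against 50.4% with edgeR. The correlation of batches 1 and 3 was −0.240 with all mice, −0.0187 on corrected counts, where batch 1 alone gave 7 calls, and −0.228 without the late mouse. The interaction was called for 1.39% of genes with the batch as a covariate and uncorrected counts and for 1.03% with all 48 mice, against 2.14%. Directions turned for genes that mostly lay near 0, and the cause was not tested. With all 48 mice values were 0.22 (*Th*), 0.15 (*Bgn*), 0.16 (*Cdkn1c*), 0.64 (*Alas2*), 0.027 (*Cirbp*) and 0.33 (*Nupr1*). With batches 1 and 3 only values were −0.0092 (*Tfrc*), 0.12 (*Th*), −0.045 (*Ptprc*) and 0.0057 (*Dnajb11*). Without the PFF mice of batch 2 values were 0.053 (*Th*) and −0.040 (*Ptprc*). With the batch as a covariate the value was 0.037 (*Th*). With no batch term values were −0.021 (*Tfrc*), −0.00097 (*Ldha*), 0.028 (*Th*), 0.0024 (*Pfkl*) and −0.019 (*Clk4*). Without the late mouse values were −0.013 (*Ldha*) and −0.0078 (*Slc16a3*). With limma on log2(TPM + 1), with or without a filter values were −0.00037 (*Ldha*), 0.068 (*Th*) and −0.00057 (*Ptprc*). With limma on log2(TPM + 0.1) values were −0.00035 (*Ldha*), 0.069 (*Th*) and −0.0047 (*Ptprc*). With the replicate block values were −0.031 (*Slc16a3*), −0.042 (*Aif1*), 0.38 (*Th*), −0.35 (*Lgals3*), −0.064 (*Ptprc*), −0.036 (*Serpina3n*), −0.031 (*Tapbp*), −0.054 (*Nlrc5*), 0.0023 (*Lss*) and −0.011 (*Dnajb1*). The 16 leading genes kept their direction in all 33 alternatives. These include the fits of batch 1 and batch 3 alone, whose signs were used to choose the 16. They also include the fits without single mice, which share most of their mice with the fit reported. The constancy thus follows in part from the choice.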
